A study of Mus musculus with 20 samples.

Results

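Reduced representation bisulfite sequencing (RRBS), which reads cytosine methylation in MspI fragments rich in CpG dinucleotides, covered 71949 tiles of 100 bp on the mouse autosomes in sperm, in oocytes and in the maternal pronuclei of zygotes. Of these tiles, 1643 (2.28%) were methylated in the oocyte and not in sperm. A tile belonged to this set when its mean methylation level was at least 75% in the 2 Oocyte libraries and at most 25% in the 2 Sperm libraries. The level of a tile is the share of methylated calls among all its calls, in percent. A tile counted as covered when every one of 12 libraries (2 Sperm, 2 Oocyte and 8 maternal) had 10 calls or more in it, from no fewer than 2 positions read 5 times or more. The gamete levels chose the tiles and are given here as a description only. Of the other tiles, 6428 were methylated in both gametes, 11626 in sperm only and 46097 in neither.

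The study asked what the dioxygenase TET3 and DNA replication contribute to the loss of methylation from both parental genomes after fertilisation. Eggs came from superovulated females of 7 to 10 weeks of age, either WT (f/f alleles) or CKO (Zp3-Cre, f/- alleles, with Cre driven by a promoter active in growing oocytes). All eggs were fertilised in vitro with C57BL/6J sperm, so the paternal Tet3 copy was wild type in both genotypes. Zygotes of the groups with the ending Aphi were cultured with 3 µg/ml aphidicolin, an inhibitor of the replicative DNA polymerases, from 5 h after fertilisation, and the others were mock-treated. Pronuclei were removed by hand at 12 h and frozen at 13 h, and the parental origin was read from the size of the pronucleus and its distance from the second polar body. The maternal groups were WT-Mat, WT-Mat-Aphi, CKO-Mat and CKO-Mat-Aphi, the paternal groups WT-Pat, WT-Pat-Aphi, CKO-Pat and CKO-Pat-Aphi, and the gamete groups Sperm and Oocyte (both labelled WT and mock). Each of the 10 groups had 2 libraries. Those of the pronuclear groups were typically made from about 20 pooled pronuclei, with 21 PCR cycles. Neither the strain of the females nor the stage of the sequenced oocytes is stated in the labels. The labels do not say whether the 2 libraries of a group came from separate females or days, so the spread between them may be technical.

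Methylation of the oocyte is laid down during oocyte growth by DNMT3A and its partner DNMT3L, largely across transcribed stretches, and CpG islands inside such stretches become methylated in the egg while they stay free of methylation in sperm. A small number of these islands keep their methylation on the maternal copy through embryonic development as germline imprints, and most others do not. In the zygote, TET3 oxidises 5-methylcytosine and is best known for acting on the paternal genome, whereas replication without full maintenance leaves new strands unmethylated. Bisulfite sequencing reads 5-methylcytosine and 5-hydroxymethylcytosine alike, and reads the further oxidised forms as unmethylated.

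Promoter sequences were matched to the deposited positions by the spacing of their CpGs, and 110 of the 1643 tiles (6.70%) lay in a promoter placed in this way, against 9.40% of all tiles. The share was 14.2% of the tiles unmethylated in both gametes, 0.109% of those methylated in both and 0.0946% of those methylated in sperm only. The 8 promoters below were chosen after their values were seen. Mcts2, Plagl1 and Zrsr1 are imprinted genes expressed from the paternal copy, Tet3 encodes the enzyme deleted in the CKO eggs, and Dnmt1 encodes the maintenance methyltransferase. Sema4c (a semaphorin) holds the longest run of tiles, S1pr2 (a sphingosine-1-phosphate receptor) has one of the largest differences with aphidicolin, and Maz (a zinc-finger transcription factor) has a tile that passed the tile test described further down. Each sequence is from RefSeq (GRCm38.p6), runs 5′ to 3′ from 250 bases before to 50 bases after the gene start, and carries in capitals the CpGs with a deposited position inside an oocyte-only tile.
Mcts2: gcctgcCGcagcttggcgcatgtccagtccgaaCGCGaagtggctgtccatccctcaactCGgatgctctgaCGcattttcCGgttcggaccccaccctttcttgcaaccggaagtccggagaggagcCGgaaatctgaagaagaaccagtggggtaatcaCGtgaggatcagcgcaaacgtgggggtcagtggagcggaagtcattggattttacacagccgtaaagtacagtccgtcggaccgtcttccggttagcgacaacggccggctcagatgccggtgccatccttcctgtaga
Plagl1: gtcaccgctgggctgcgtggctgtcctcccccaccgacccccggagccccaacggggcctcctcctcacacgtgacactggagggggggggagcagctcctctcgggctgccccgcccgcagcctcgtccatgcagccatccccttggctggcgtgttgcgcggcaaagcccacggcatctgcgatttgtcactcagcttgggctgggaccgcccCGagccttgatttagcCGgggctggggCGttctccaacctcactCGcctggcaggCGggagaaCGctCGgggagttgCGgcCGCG
Zrsr1: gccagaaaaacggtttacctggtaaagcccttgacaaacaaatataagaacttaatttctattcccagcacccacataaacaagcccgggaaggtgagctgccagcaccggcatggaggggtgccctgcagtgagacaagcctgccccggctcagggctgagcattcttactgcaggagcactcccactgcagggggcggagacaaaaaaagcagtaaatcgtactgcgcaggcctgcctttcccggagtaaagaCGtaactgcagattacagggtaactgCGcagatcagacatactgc
Tet3: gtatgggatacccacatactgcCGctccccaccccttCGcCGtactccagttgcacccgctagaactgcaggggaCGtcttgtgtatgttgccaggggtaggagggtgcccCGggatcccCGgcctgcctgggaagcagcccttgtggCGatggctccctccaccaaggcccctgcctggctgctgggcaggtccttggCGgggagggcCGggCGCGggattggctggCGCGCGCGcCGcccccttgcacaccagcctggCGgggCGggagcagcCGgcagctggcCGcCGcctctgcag
Dnmt1: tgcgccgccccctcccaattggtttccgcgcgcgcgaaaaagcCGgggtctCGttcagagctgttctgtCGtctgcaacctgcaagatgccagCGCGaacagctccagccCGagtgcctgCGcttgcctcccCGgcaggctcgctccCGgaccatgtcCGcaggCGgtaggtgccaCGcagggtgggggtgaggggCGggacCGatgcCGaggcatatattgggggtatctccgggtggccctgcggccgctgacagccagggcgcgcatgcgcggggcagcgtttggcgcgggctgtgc
Sema4c: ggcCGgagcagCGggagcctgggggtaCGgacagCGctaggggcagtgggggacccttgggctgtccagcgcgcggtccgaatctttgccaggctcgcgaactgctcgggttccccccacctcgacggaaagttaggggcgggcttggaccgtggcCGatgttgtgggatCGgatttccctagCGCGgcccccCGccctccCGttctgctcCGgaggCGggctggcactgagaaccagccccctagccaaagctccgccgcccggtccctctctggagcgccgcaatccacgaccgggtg
S1pr2: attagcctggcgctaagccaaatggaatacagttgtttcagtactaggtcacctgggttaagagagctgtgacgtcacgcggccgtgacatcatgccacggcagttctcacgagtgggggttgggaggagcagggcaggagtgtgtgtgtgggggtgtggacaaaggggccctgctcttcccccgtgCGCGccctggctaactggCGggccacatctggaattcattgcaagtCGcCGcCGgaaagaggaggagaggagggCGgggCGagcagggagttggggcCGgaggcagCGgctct
Maz: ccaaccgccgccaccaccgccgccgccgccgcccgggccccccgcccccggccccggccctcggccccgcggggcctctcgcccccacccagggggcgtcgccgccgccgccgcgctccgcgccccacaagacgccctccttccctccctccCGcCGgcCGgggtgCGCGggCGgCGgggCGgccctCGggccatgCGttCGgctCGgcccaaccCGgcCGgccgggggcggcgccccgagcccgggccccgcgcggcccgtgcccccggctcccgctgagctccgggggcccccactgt
On the positions of the files (mm9), these promoters lie at chr2:152512634-152512933 (plus strand), chr10:12810388-12810687 (plus), chr11:22871755-22872054 (plus), chr6:83391623-83391922 (minus), chr9:20757018-20757317 (minus), chr1:36614353-36614652 (minus), chr9:20781188-20781487 (minus) and chr7:134169944-134170243 (minus), in the order shown. They hold between 10 CpGs (Zrsr1) and 51 CpGs (Maz), and between 2 and 21 of these are in capitals. Promoters with an oocyte-only tile held a median of 22.5 CpGs (90 promoters), and all placed promoters with a covered tile held 26 (4638 promoters).

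Total calls ranged from 22431861 to 68056783 per library, and the oocyte-only tiles had medians of 147 to 321 calls in the 12 libraries that defined coverage. Those also covered in the paternal libraries (1084 tiles) had medians of 166 to 424 calls in the 8 paternal libraries. PCR copies were not marked by molecular identifiers, so calls are not independent molecules, and the number of molecules behind a tile is unknown. Maternal Aphi libraries held 1088616 to 1205552 positions and maternal mock ones 1525060 to 1699246, while WT-Pat replicate 1, a mock library, held 1009368. Chromosomes were listed in sorted order in every mock pronuclear library and in no Aphi or gamete library. What this order reflects is not stated, and among pronuclear libraries it cannot be told apart from treatment. Mock pronuclear libraries differ from the gamete libraries in this order too, and Aphi libraries do not. Before the results, libraries that stood apart on signs of the other parental genome are named. Tiles methylated in sperm only had a mean level of 3.50% and 3.81% in WT-Mat (replicates 1 and 2), 5.00% and 5.12% in WT-Mat-Aphi, 8.95% and 10.7% in CKO-Mat, and 9.33% and 5.41% in CKO-Mat-Aphi. Both CKO-Mat libraries and replicate 1 of CKO-Mat-Aphi thus lay above all other maternal libraries on this measure. Chromosome Y, absent from a maternal pronucleus, took 0.00297% of the calls in CKO-Mat replicate 1 and 0.00163% in CKO-Mat-Aphi replicate 1. In the other 6 maternal libraries it took 6.77e-05% to 0.000692%, and in the oocytes 3.44e-05% and 4.41e-05%.

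In gametes the tiles were close to the extremes, and in untreated maternal pronuclei their mean level was lower than in oocytes by a moderate amount. The mean over the 1643 tiles was 94.9% and 95.0% in the Oocyte libraries and 3.46% and 3.51% in the Sperm libraries. In WT-Mat it was 81.4% and 84.1%, and the group mean of 82.8% ± 1.93 (SD, n = 2) differed from that of the oocytes by -12.2 points. The oocyte levels chose the tiles, so part of any difference from them can come from that choice, and its size was not tested. The median tile was closer to the oocyte than the mean: it stood at 90.7% and 91.7% in the WT-Mat libraries and at 98.1% and 98.6% in the oocytes. The smallest two-sided p of an exact permutation test between 2 groups of 2 libraries is 0.333, so differences of these means are given with the 4 differences between single libraries and no p.

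The lower mean in WT-Mat was spread over many tiles, and some stood far lower than the rest. At least 95% methylation was found in 38.3% and 40.0% of the tiles in the WT-Mat libraries and in 68.1% and 68.5% in the oocytes. A level between 25% and 75% was found in 22.1% and 19.5% of the tiles, and a level under 25% in 4.50% and 2.43%. In single tiles the libraries of a group often disagreed: the 2 WT-Mat libraries differed by more than 50 points in 74 tiles, the WT-Mat-Aphi libraries in 64, the CKO-Mat libraries in 99 and the CKO-Mat-Aphi libraries in 127. In all 8 maternal libraries, 538 tiles (32.7%) stood at 75% or more and 25 at 95% or more, while 1 tile stood under 25%.

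**Figure D1:**
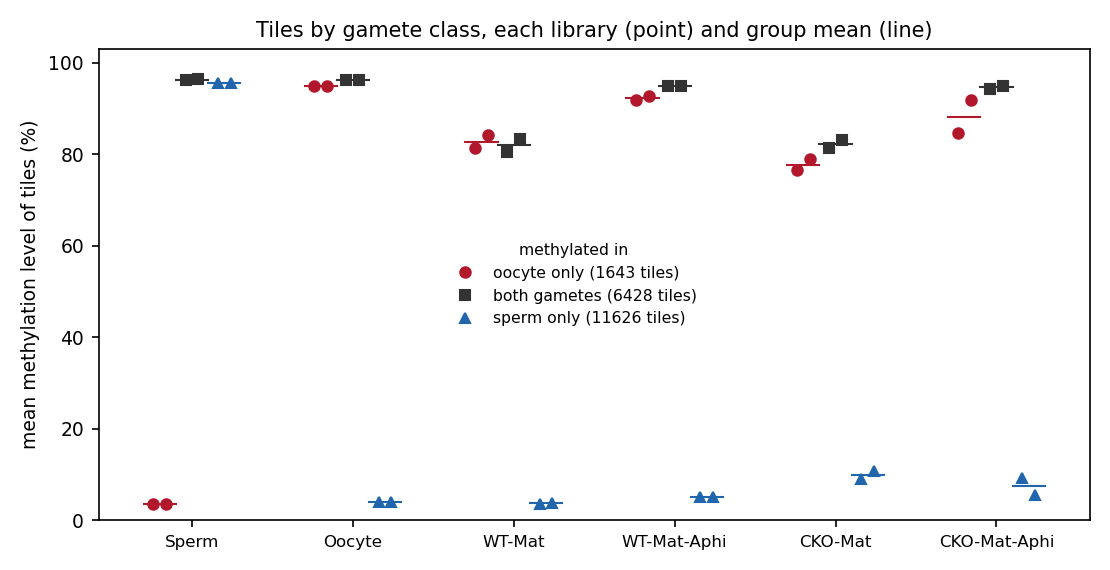
Mean methylation level (%) of the tiles of 3 gamete classes in each library (points) of 6 groups, with the group mean (line). The oocyte-only tiles sit between 81.4% and 84.1% in WT-Mat, between 91.9% and 92.7% in WT-Mat-Aphi and between 76.5% and 79.0% in CKO-Mat, and the tiles methylated in sperm only stand at 8.95% and 10.7% in CKO-Mat and at 9.33% and 5.41% in CKO-Mat-Aphi.

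With aphidicolin, the oocyte-only tiles of wild-type maternal pronuclei stood near their oocyte levels. The mean over the tiles was 91.9% and 92.7% in WT-Mat-Aphi, above both WT-Mat libraries (81.4% and 84.1%), a difference of 9.52 points (7.76 to 11.3 over the 4 pairs of libraries). Both WT-Mat-Aphi libraries had a median tile at 100%, and 74.7% and 74.1% of the tiles stood at 95% or more. These measures lay above those of the oocytes (98.3% and 68.3%, group means), while the mean lay below that of the oocytes (92.3% against 94.9%). Tiles methylated in both gametes differed by 13.0 points, from 80.6% and 83.3% in WT-Mat to 95.1% and 94.9% in WT-Mat-Aphi. In both WT-Mat-Aphi libraries the oocyte-only tiles were lower than the tiles methylated in both gametes (differences of -3.15 and -2.21 points), whereas in WT-Mat they were higher by 0.846 and 0.820 points.

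Counted tile by tile, 451 of the 1643 tiles (27.4%) had both WT-Mat-Aphi libraries above both WT-Mat libraries by a mean of at least 10 points, and 33 (2.01%) lay lower by the same rule. Over all 71949 tiles the shares were 6.56% higher and 1.24% lower, and over the tiles methylated in both gametes 36.8% and 1.01%. All tiles include many that were unmethylated in both gametes. The median difference was 5.72 points over the oocyte-only tiles, 10.3 points over the tiles methylated in both gametes and 0 over all tiles. A quasi-binomial test of the calls in each tile, adjusted over all tiles by the Benjamini-Hochberg method, called 1 oocyte-only tile higher with aphidicolin (adjusted p under 0.05 and at least 10 points), where 0.00834% of all tiles were called, and none lower. At an unadjusted p under 0.05, 119 of the 1643 tiles lay higher and 15 lower, and 1.57% of all tiles passed in either direction. In simulated data this test called 7 of 52 tiles changed by 60 points and none of 50 changed by 20 points, so a count of calls near 0 is not evidence of no change. The single call was lost with the replicate number as a block and on leaving out any of the 4 libraries. With tiles of 1000 bp the test called 23 of 1666 oocyte-only tiles higher and 3 lower, against 0.156% and 0.0124% of all such tiles.

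The called tile, chr18:45719501-45719600, stood at 94.6% and 93.4% in the oocytes and at 0.163% and 0% in the WT-Mat libraries. It stood at 57.5% and 73.6% in the WT-Mat-Aphi libraries, 65.5 points higher (adjusted p = 0.0240, quasi-binomial test with limma's variance shrinkage, a call lost without any 1 of the 4 libraries). Neither WT-Mat library reached the lower WT-Mat-Aphi library. In the CKO it stood at 20.2% and 62.3% without aphidicolin and at 44.0% and 76.2% with it, and these groups overlapped. The tile lies in a run of 5 oocyte-only tiles, chr18:45719401-45720400, which was among the 5 runs of 3 or more tiles with the lowest maternal mean. Over the whole run the WT-Mat libraries stood at 18.6% and 41.6% and the WT-Mat-Aphi libraries at 61.6% and 53.9%.

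CKO maternal pronuclei also stood higher with aphidicolin. The mean over the tiles was 76.5% and 79.0% in CKO-Mat and 84.6% and 91.9% in CKO-Mat-Aphi, a difference of 10.5 points (5.61 to 15.3 over the pairs). Every CKO-Mat-Aphi library lay above every CKO-Mat library, and the 2 CKO-Mat-Aphi libraries lay farther apart than those of any other maternal group. Without replicate 1 the difference was 14.1 points, and without replicate 2 it was 6.85 points. By the tile-by-tile rule, 560 tiles (34.1%) lay higher and 41 (2.50%) lower, against 6.47% and 3.33% of all tiles and 35.8% and 1.23% of the tiles methylated in both gametes. The quasi-binomial test called 2 tiles higher, where 0.00973% of all tiles were called, and none lower. At an unadjusted p under 0.05, 170 tiles lay higher and 13 lower, against 1.75% of all tiles in either direction. It called none with the 4 libraries fitted alone, with the replicate block, or without replicate 2 of CKO-Mat or of CKO-Mat-Aphi. With tiles of 1000 bp it called 26 of 1666 higher and none lower, against 0.147% and 0.0186% of all such tiles.

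One called tile lies in the Maz promoter (chr7:134170001-134170100). It stood at 2.50% and 25.4% in CKO-Mat and at 89.9% and 99.1% in CKO-Mat-Aphi (adjusted p = 0.0218, quasi-binomial test). In WT-Mat it stood at 93.6% and 99.7%, in WT-Mat-Aphi at 100% in both libraries, and in the oocytes at 100% and 97.6%, so the 2 CKO-Mat libraries were the only low ones among the oocyte and maternal libraries. The other, chr11:29924501-29924600, stood at 18.9% and 0% in CKO-Mat and at 100% and 96.9% in CKO-Mat-Aphi (adjusted p = 0.0218, quasi-binomial test). It stood at 43.3% and 94.9% in WT-Mat and at 100% in both WT-Mat-Aphi libraries.

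A difference between the genotypes in the response to aphidicolin was tested by the interaction term of the same quasi-binomial model. It was called at 0 of 1643 oocyte-only tiles (adjusted p under 0.05, against 0.00139% of all tiles), with a lowest adjusted p of 0.523. At an unadjusted p under 0.05 stood 57 tiles (3.47%, against 0.782% of all tiles), of which 31 had the larger response in points in CKO and 26 in WT. The 9.52 points in WT and the 10.5 points in CKO lay within the range of the single-library differences of the other genotype.

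Without aphidicolin, the oocyte-only tiles stood lower in CKO than in WT maternal pronuclei. Both CKO-Mat libraries (76.5% and 79.0%) lay under both WT-Mat libraries (81.4% and 84.1%), a difference of -4.99 points (-7.60 to -2.39 over the pairs). The share of tiles at 95% or more was 20.4% and 31.0% in CKO-Mat and 38.3% and 40.0% in WT-Mat. Tiles methylated in both gametes stood at 81.4% and 83.1% in CKO-Mat and at 80.6% and 83.3% in WT-Mat, and these groups overlapped (+0.279 points). Set against the tiles methylated in both gametes within each library, the oocyte-only tiles differed by -4.82 and -4.05 points in CKO-Mat. The sperm-only tiles were higher in the same 2 libraries (8.95% and 10.7% against 3.50% and 3.81%), and the part of the other parental genome in the CKO difference was not tested.

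By the tile-by-tile rule, 343 oocyte-only tiles (20.9%) lay lower in CKO-Mat and 104 (6.33%) higher, against 2.71% and 5.28% of all tiles and 11.8% and 12.04% of the tiles methylated in both gametes. The quasi-binomial test called none of the oocyte-only tiles in either direction, where it called 0.00139% of all tiles higher and 0.00278% lower. At an unadjusted p under 0.05, 101 tiles lay lower and 20 higher, against 1.28% of all tiles in either direction. By limma on arcsine square roots 6 tiles were called lower and none higher, against 0.0278% and 0.0153% of all tiles. With tiles of 1000 bp the quasi-binomial test called 13 of 1666 lower and 5 higher, against 0.0495% and 0.0309% of all such tiles.

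With aphidicolin in both genotypes, the CKO and WT means differed less clearly. CKO-Mat-Aphi stood at 84.6% and 91.9% and WT-Mat-Aphi at 91.9% and 92.7%, a difference of -4.06 points (-8.07 to -0.0557), and without replicate 1 of CKO-Mat-Aphi it was -0.455 points. The library left out is the one with sperm-only tiles at 9.33% and the larger share of chromosome Y calls. By the tile-by-tile rule 124 tiles (7.55%) lay lower and 54 (3.29%) higher, against 2.04% and 2.29% of all tiles. No tile was called in either direction by the quasi-binomial test, as over all tiles (0%). At an unadjusted p under 0.05, 45 tiles lay lower and 13 higher, against 1.01% of all tiles in either direction. With tiles of 1000 bp 4 of 1666 were called lower and none higher, against 0.0511% and 0.0155% of all such tiles.

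**Figure D2:**
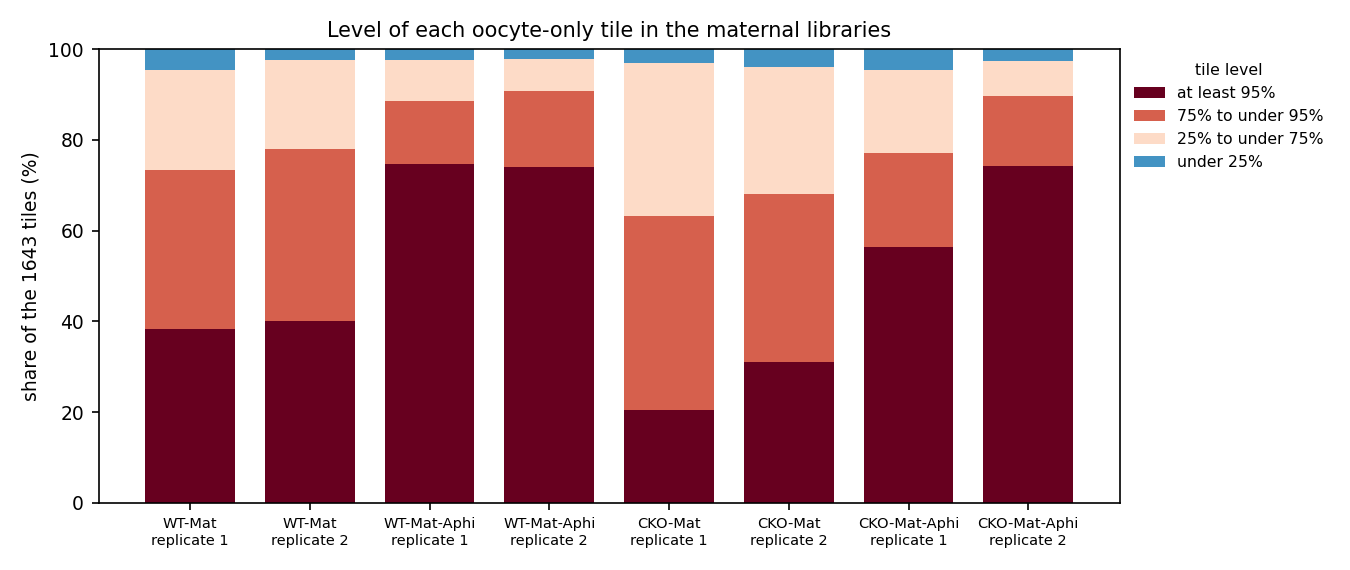
Share (%) of the 1643 oocyte-only tiles in 4 ranges of methylation level, for each of the 8 maternal libraries. Tiles at 95% or more make up 38.3% and 40.0% in WT-Mat, 74.7% and 74.1% in WT-Mat-Aphi, 20.4% and 31.0% in CKO-Mat, and 56.5% and 74.3% in CKO-Mat-Aphi.

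The tiles differed in how many CpG positions surround them, a feature that the gamete limits did not use. The count includes the tile's own positions, of which the coverage rule asked for at least 2. It holds positions deposited in any library, not all CpGs of the genome, and is called density below. A median of 37 deposited positions lay within 500 bp of an oocyte-only tile, 11 around tiles methylated in both gametes, 9 around tiles methylated in sperm only and 67 around tiles unmethylated in both. The oocyte-only tiles were split into 3 sets of about equal size, with 2 to 23, 24 to 54 and 55 to 210 positions. In WT-Mat these sets stood at 79.4% ± 2.59, 83.5% ± 1.73 and 85.5% ± 1.48 (SD, n = 2), in the order of rising density. In CKO-Mat they stood at 77.3% ± 3.33, 78.2% ± 2.71 and 77.9% ± 0.787.

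The difference of WT-Mat-Aphi from WT-Mat was 13.1 points in the sparsest set (11.2 to 14.9 over the pairs), 8.94 points in the middle (6.47 to 11.4) and 6.56 points in the densest (5.50 to 7.63). Tiles methylated in both gametes, split at the same limits, gave 13.5, 8.65 and 4.24 points in 5832, 577 and 19 tiles. Within a range of density the 2 classes thus had like differences with aphidicolin in the sparsest and the middle range, and the densest rests on 19 tiles of the second class. The difference of CKO-Mat from WT-Mat went the other way with density. It was -2.12 points in the sparsest set (-6.30 to 2.07), -5.24 points in the middle (-8.38 to -2.11) and -7.63 points in the densest (-9.23 to -6.02), while the tiles methylated in both gametes gave 0.394, -0.902 and 0.821 points. CKO-Mat and WT-Mat libraries overlapped in the sparsest set and not in the others. Both orders rest on the same 2 WT-Mat libraries, whose level rose with density, so they are not independent. From the sparsest to the densest set, WT-Mat-Aphi stood at 92.5%, 92.4% and 92.1% and CKO-Mat at 77.3%, 78.2% and 77.9%. Neither order was found in the other pair of each kind. CKO-Mat-Aphi differed from CKO-Mat by 11.9, 9.56 and 9.93 points, and from WT-Mat-Aphi by -3.31, -4.61 and -4.26 points, in the sparsest, middle and densest set.

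**Figure D3:**
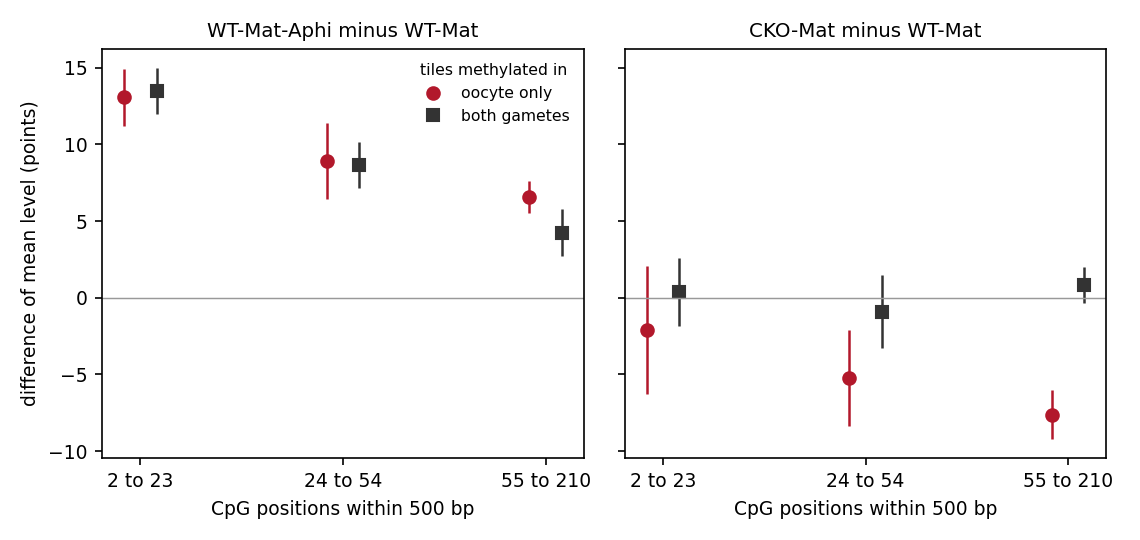
Difference of mean level (percentage points) of WT-Mat-Aphi (left) and CKO-Mat (right) from WT-Mat in 3 ranges of CpG density (deposited positions within 500 bp). Circles are oocyte-only tiles and squares are tiles methylated in both gametes. Lines run from the lowest to the highest of the 4 differences between single libraries. The oocyte-only tiles go from 13.1 to 6.56 points on the left and from -2.12 to -7.63 points on the right as density rises. Both panels use the same WT-Mat libraries.

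Joined where less than 500 bp apart, the 1643 tiles formed 1102 regions, of which 766 were single tiles, 336 had 2 or more tiles and 122 had 3 or more. Tiles in regions of 2 or more stood at 84.6% and 87.1% in WT-Mat, and single tiles at 77.7% and 80.8%. In WT-Mat-Aphi they stood at 92.5% and 93.1% against 91.2% and 92.2%. Among the 336 regions, 173 had both WT-Mat-Aphi libraries above both WT-Mat libraries and 9 had them below, whatever the size of the difference (51.5% and 2.68%). Over the 13768 regions of 2 or more tiles formed from all tiles in the same way, the shares were 12.6% and 11.3%, and over the 584 such regions methylated in both gametes they were 66.3% and 2.23%. Both CKO-Mat libraries lay below both WT-Mat libraries in 144 of the 336 regions (42.9%) and above them in 23 (6.85%), against 9.67% and 16.6% of the regions of all tiles and 101 and 105 of the 584 regions methylated in both gametes.

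The longest region, chr1:36613401-36615300, held 11 tiles and spans the Sema4c promoter shown above. It stood at 93.7% and 96.2% in the oocytes and at 89.0% and 93.7% in WT-Mat. It stood at 98.8% and 97.2% in WT-Mat-Aphi, at 86.0% and 79.5% in CKO-Mat and at 78.8% and 98.0% in CKO-Mat-Aphi. The 2 CKO-Mat libraries and replicate 1 of CKO-Mat-Aphi were the lowest here, and they are the maternal libraries with the highest sperm-only levels. The region of 6 tiles at chr5:23980101-23980900 was lower, with 36.9% and 59.5% in WT-Mat, 88.1% and 78.8% in WT-Mat-Aphi and 69.8% and 51.5% in CKO-Mat. By contrast, 6 tiles at chr5:132013801-132014900 stood at 92.5% and 96.4% in WT-Mat and 98.2% and 97.6% in WT-Mat-Aphi.

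The regions with the largest differences in each comparison were chosen by those differences, and their values are a description. The region with the largest positive difference of WT-Mat-Aphi from WT-Mat was that of S1pr2 (3 tiles, chr9:20780601-20781300). It stood at 80.1% and 91.6% in the oocytes, at 29.7% and 33.1% in WT-Mat and at 95.3% and 96.2% in WT-Mat-Aphi. It stood at 32.8% and 32.2% in CKO-Mat and at 84.1% and 46.0% in CKO-Mat-Aphi. All 4 untreated libraries were low and within 4 points of each other. The next 4 regions, chr6:134591201-134591400, chr15:84586901-84587200, chr5:122498401-122498700 and chr11:97636801-97637100, differed by 64.1, 50.9, 49.0 and 44.4 points.

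Regions lower with aphidicolin had smaller differences in WT. The largest, chr2:28388901-28389100, stood at 89.4% and 95.6% in WT-Mat and at 84.9% and 46.9% in WT-Mat-Aphi, so that 1 library carried most of its -26.6 points. At chr5:44491801-44492400 (4 tiles) the 2 libraries of each WT group were close to each other, with 88.8% and 89.6% in WT-Mat and 66.1% and 70.6% in WT-Mat-Aphi, while CKO-Mat stood at 76.3% and 59.8%. The other 3, at chr4:117545001-117545200 (the Ccdc24 promoter), chr13:45663301-45663800 and chr11:74651501-74652100, differed by -11.1, -9.75 and -7.76 points.

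In CKO the largest positive difference with aphidicolin was at chr11:94426701-94426900, with 11.1% and 25.8% in CKO-Mat and 82.2% and 86.7% in CKO-Mat-Aphi. This region also stood apart between the WT-Mat-Aphi libraries (23.7% and 90.8%). The largest negative difference was at chr7:31604901-31605100, with 64.0% and 87.4% in CKO-Mat and 16.0% and 21.9% in CKO-Mat-Aphi. At chr17:8533501-8534100 (3 tiles) CKO-Mat-Aphi stood at 56.9% and 29.0%, under every library of the other maternal groups, which ranged from 82.8% to 95.1%.

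Between untreated genotypes, chr14:118775201-118775500 (3 tiles) had the largest positive difference, with 14.2% and 9.04% in WT-Mat and 53.5% and 60.4% in CKO-Mat. Its WT-Mat libraries were also under both oocyte libraries (83.3% and 77.0%) by more than 60 points. The largest negative difference, at chr16:91321201-91321400, rests on 1 library, with 83.2% and 29.3% in CKO-Mat and 100% and 95.8% in WT-Mat. At chr16:22548501-22548700 both CKO-Mat libraries were low (49.5% and 52.6%), while WT-Mat stood at 82.3% and 99.2% and CKO-Mat-Aphi at 100% in both libraries.

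Among regions of 3 or more tiles, the highest mean over the maternal libraries was at chr10:79197901-79198400 (4 tiles), where levels ran from 92.9% in CKO-Mat replicate 2 to 100% in WT-Mat-Aphi. The lowest was at chr6:90686301-90687000 (3 tiles), with 98.7% and 97.7% in the oocytes. There the WT-Mat libraries stood at 15.5% and 26.2%, the WT-Mat-Aphi libraries at 61.7% and 28.9%, the CKO-Mat libraries at 11.2% and 11.8% and the CKO-Mat-Aphi libraries at 10.5% and 16.4%. No maternal library at this region came within 30 points of either oocyte library.

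Imprinted genes were examined in 19 windows around maternal germline differentially methylated regions, placed in mm9 from general knowledge. Of the 40 covered tiles in these windows 28 were oocyte-only tiles (70%, against 2.28% of all tiles), and 13 of the 16 windows with a covered tile held at least 1. Windows and tiles were both chosen for methylation in the oocyte and not in sperm, so this share follows largely from the choice. In WT-Mat the 28 tiles stood at 93.6% and 93.0%, and the other 1615 oocyte-only tiles at 82.6% ± 1.97 (SD, n = 2). The 28 tiles thus stood 12.4 and 9.0 points above the others in the WT-Mat libraries and 7.13 and 3.26 points above them in WT-Mat-Aphi. In CKO-Mat they stood at 80.4% and 92.2%, 3.94 and 13.4 points above the others, and in CKO-Mat-Aphi at 93.9% and 97.2%, 9.42 and 5.48 points above. The windows were higher than the other oocyte-only tiles in 8 of 8 maternal libraries, which is a description of chosen windows and carries no test. They were higher in the oocytes too, at 97.8% against 94.9% (group means), so part of the gap was already present there.

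Single windows varied with the library. The Plagl1 window (a zinc-finger gene, 4 tiles, chr10:12810601-12811000) stood at 96.5% and 93.5% in WT-Mat, 98.7% and 98.1% in WT-Mat-Aphi, 85.1% and 90.9% in CKO-Mat, and 95.8% and 97.1% in CKO-Mat-Aphi. The Grb10 window (an inhibitor of insulin receptor signalling, 4 tiles, chr11:11925801-11926500) stood at 88.1% and 97.3% in WT-Mat and at 77.3% and 74.5% in CKO-Mat. Both CKO-Mat libraries were the lowest of the 8 maternal libraries at Grb10. The Zrsr1 window (a splicing factor gene, 2 tiles, chr11:22872001-22872300) stood at 87.5% or more in every maternal library.

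The Mcts2 window (a retrogene, 2 tiles, chr2:152512601-152512800) stood at 95.3% and 96.9% in WT-Mat and at 56.9% and 100% in CKO-Mat. The Inpp5f window (1 tile, chr7:135831701-135831800) stood at 100% and 60% in WT-Mat and at 47.4% and 100% in CKO-Mat. CKO-Mat replicate 1 was the lowest maternal library in both. The Kcnq1ot1 window (a paternally expressed long noncoding RNA, 1 tile, chr7:150481301-150481400) was lowest in WT-Mat replicate 1, at 73.8%, with 94.6% in replicate 2. The Peg13 window (2 tiles, chr15:72640101-72640300) was lowest in CKO-Mat-Aphi replicate 1, at 44.9%, with 99.9% in replicate 2.

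The remaining windows were Nespas-Gnasxl (3 tiles), Gnas exon 1A (2 tiles), Nap1l5 (1 tile), Peg3 (2 tiles), Slc38a4 (2 tiles) and Impact (2 tiles). Their means over the 8 maternal libraries ran from 91.8% (Slc38a4 and Peg3) to 96.6% (Nespas-Gnasxl). The lowest single value among them was 67.3%, at Peg3 in CKO-Mat replicate 1. That library was also the lowest maternal one at Nespas-Gnasxl (90.4%), Gnas exon 1A (76.7%), Nap1l5 (76.8%) and Plagl1 (85.1%), besides Mcts2 and Inpp5f. Other libraries were the lowest at Grb10, Zrsr1, Kcnq1ot1, Peg13, Slc38a4 and Impact. CKO-Mat replicate 1 had the largest maternal share of chromosome Y calls (0.00297%), and the part of the other parental genome in these values was not tested.

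**Figure D4:**
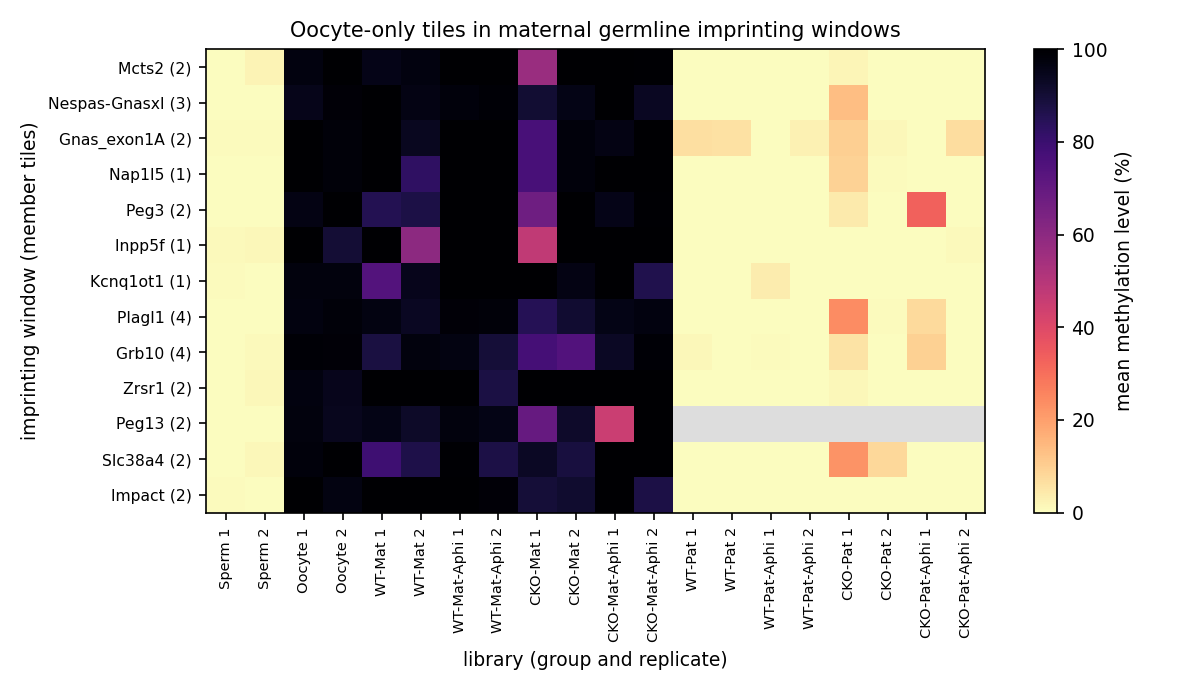
Mean methylation level (%, colour) of the oocyte-only tiles in 13 imprinting windows (rows, with the number of tiles) in all 20 libraries (columns); grey marks a window without the coverage in the paternal libraries. Oocyte and maternal columns are dark except at some windows, such as Peg13 at 44.9% in CKO-Mat-Aphi replicate 1 and Inpp5f at 47.4% in CKO-Mat replicate 1. CKO-Mat replicate 1 is the lowest maternal library in more windows than any other. Sperm and paternal columns are light except in replicate 1 of CKO-Pat and of CKO-Pat-Aphi.

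The promoters of the 2 DNA modifying enzymes named above stood near their oocyte levels in WT. At Tet3 (3 tiles) the oocytes stood at 97.7% and 100%, WT-Mat at 88.8% and 92.8% and WT-Mat-Aphi at 100% in both libraries. CKO-Mat stood at 96.2% and 83.4% and CKO-Mat-Aphi at 80.0% and 96.2%, and the CKO and WT libraries without aphidicolin overlapped. This promoter overlaps that of B230319C09Rik on the other strand, and the tiles cannot be assigned to 1 of the 2. At Dnmt1 (2 tiles) the oocytes stood at 98.3% and 98.1%, WT-Mat at 96.7% and 91.4% and WT-Mat-Aphi at 100% in both libraries. CKO-Mat stood at 83.0% and 82.1%, under both WT-Mat libraries, and CKO-Mat-Aphi at 81.8% and 100%. Both CKO-Mat libraries and replicate 1 of CKO-Mat-Aphi, low at Dnmt1, are the maternal libraries with the highest sperm-only levels. The part of the other parental genome at Dnmt1 was not tested.

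Other placed promoters covered the whole range. Both placed Zfp473 promoters (a zinc-finger gene) stood at 95.2% or more in every maternal library. The S1pr2 promoter tiles stood at 15.4% and 27.0% in WT-Mat and at 93.9% and 100% in WT-Mat-Aphi. The difference of the promoter tiles from the other oocyte-only tiles had no common direction and ran from -2.85 points in CKO-Mat replicate 2 to 3.14 points in WT-Mat replicate 2.

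In paternal pronuclei the oocyte-only tiles had low methylation. Of the 1643 tiles, 1084 also had the coverage in all 8 paternal libraries, of 38018 such tiles in all. Their mean level was 2.82% and 2.91% in sperm, 3.33% and 4.71% in WT-Pat, and 4.89% and 3.74% in WT-Pat-Aphi. It was 11.5% and 4.63% in CKO-Pat and 10.6% and 4.88% in CKO-Pat-Aphi, so replicate 1 of each CKO group stood apart from the other 6 paternal libraries. Tiles unmethylated in both gametes stood between 1.63% and 2.63% in the same 8 libraries and did not stand apart in those 2, at 2.04% and 2.56%. The 21 oocyte-only tiles in the imprinting windows stood at 0.809% and 0.638% in WT-Pat, at 9.07% and 0.607% in CKO-Pat and at 4.06% and 0.686% in CKO-Pat-Aphi. The part of maternal DNA in these 2 libraries was not tested.

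Comparisons between the paternal groups gave small differences, apart from the 2 CKO libraries named above. WT-Pat-Aphi and WT-Pat overlapped (0.289 points), as did CKO-Pat-Aphi and CKO-Pat (-0.319 points). CKO-Pat exceeded WT-Pat by 4.04 points, and by 0.607 points without replicate 1 of CKO-Pat. CKO-Pat-Aphi exceeded WT-Pat-Aphi by 3.43 points, and by 0.563 points without its replicate 1. The quasi-binomial test called 0 of 1084 tiles for aphidicolin in WT, against 0.0658% of all tiles higher, with 7 tiles higher and 10 lower at an unadjusted p under 0.05 (4.76% of all tiles in either direction). It called 0 for CKO-Pat against WT-Pat (0.0342% of all tiles higher, with 34 tiles higher and 3 lower at an unadjusted p under 0.05, against 1.57% of all tiles in either direction) and 0 for CKO-Pat-Aphi against WT-Pat-Aphi (0% of all tiles, with 44 and 6, against 1.04% of all tiles in either direction). For aphidicolin in CKO it called 1 tile higher (0.0132% of all tiles), with 41 tiles higher and 17 lower at an unadjusted p under 0.05 (4.5% of all tiles in either direction). That tile, in the promoter of the fatty acid transporter gene Slc27a3 (chr3:90193801-90193900), stood at 90.9% in CKO-Pat-Aphi replicate 1 and at 0% in the other 7 paternal libraries, so the call (adjusted p = 0.0427, quasi-binomial test) rests on 1 library that was high on the whole set.

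With tiles of 1000 bp, 1429 oocyte-only tiles had the coverage in all 20 libraries. For aphidicolin in WT the test called 3 of them higher and 2 lower, against 3.86% and 0.0448% of all such tiles. For aphidicolin in CKO it called 8 higher and 3 lower, against 3.28% and 0.0523%. In both genotypes the share called higher was thus far under that of all tiles, which include tiles methylated in sperm. For CKO-Pat against WT-Pat it called 1 higher and none lower (0.0498% and 0.00747% of all such tiles), and for CKO-Pat-Aphi against WT-Pat-Aphi none in either direction (0.00249% of all such tiles in each).

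By the tile-by-tile rule, 23 of the 1084 tiles lay higher in WT-Pat-Aphi than in WT-Pat and 23 lower (2.12% each), against 9.41% and 1.25% of all tiles. For CKO-Pat-Aphi against CKO-Pat, 50 lay higher (4.61%) and 67 lower (6.18%), against 10.2% and 1.65% of all tiles. For CKO-Pat against WT-Pat, 102 lay higher (9.41%) and 18 lower (1.66%), against 5.9% and 2.18% of all tiles. For CKO-Pat-Aphi against WT-Pat-Aphi, 68 lay higher (6.27%) and 15 lower (1.38%), against 2.47% and 1.83%. The interaction of genotype and aphidicolin was called at 0 of the 1084 tiles, against 0.00526% of all tiles. At an unadjusted p under 0.05 stood 11 tiles (1.01%, against 0.771% of all tiles).

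**Figure D5:**
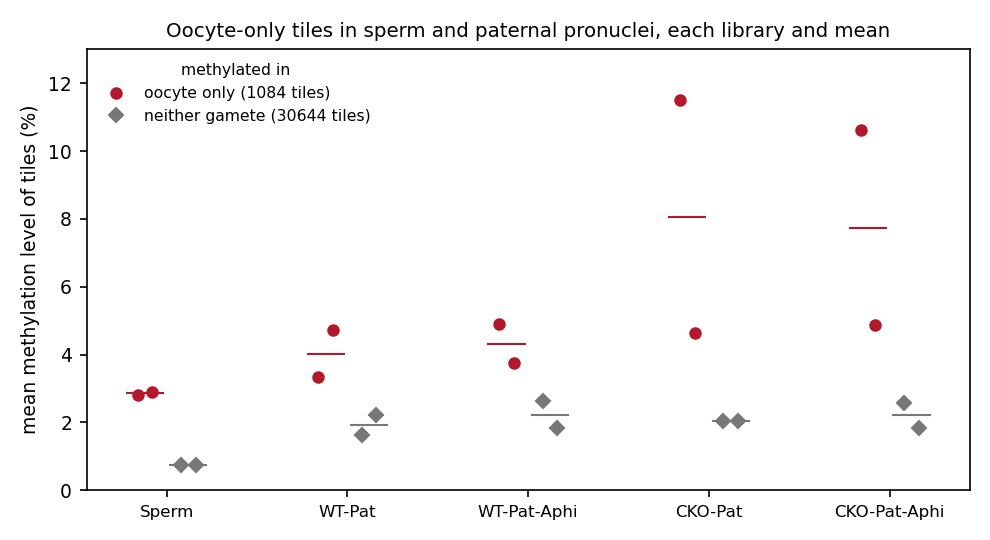
Mean methylation level (%) of the 1084 oocyte-only tiles (circles) and of 30644 tiles unmethylated in both gametes (diamonds) in the Sperm and paternal pronuclear libraries, with each library as a point and the group mean as a line. Replicate 1 of CKO-Pat (11.5%) and of CKO-Pat-Aphi (10.6%) lie above the other paternal libraries, which range from 3.33% to 4.89%.

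A few oocyte-only tiles were methylated in paternal pronuclei throughout, at a share near that of all tiles unmethylated in sperm. By a limit of 25% in all 8 paternal libraries, 5 of the 1084 tiles (0.461%) were methylated, against 0.296% of all tiles that were at most 25% methylated in sperm. At least 25% in both WT-Pat libraries was found in 23 tiles (2.12%), against 1.12% of the tiles unmethylated in sperm. A level under 5% in all 8 paternal libraries was found in 26.3% of the oocyte-only tiles, against 68.6% of the tiles unmethylated in sperm. This rule includes replicate 1 of CKO-Pat and of CKO-Pat-Aphi, where 15.0% and 15.8% of the oocyte-only tiles stood at 25% or more. In the other paternal libraries 4.80% to 7.01% did. The part of those 2 libraries in the low share was not tested. Among the 5 tiles the tile in the promoter of Gm39000 (a gene model, chr7:50721901-50722000) stood at 0.856% and 0.587% in sperm. It stood at 61.9% and 71.3% in WT-Pat, at 43.0% and 75.0% in WT-Pat-Aphi, at 69.7% and 80.8% in CKO-Pat and at 92.7% and 67.3% in CKO-Pat-Aphi. All 8 paternal libraries were above both sperm libraries by more than 40 points, and the 4 groups overlapped. The region with the highest paternal mean among those of 2 or more tiles, chr1:193960601-193960900, stood at 0.335% and 0.650% in sperm and at 48.4% and 76.8% in WT-Pat. It stood at 70.1% and 40.3% in WT-Pat-Aphi, 58.2% and 52.7% in CKO-Pat, and 73.3% and 63.4% in CKO-Pat-Aphi.

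Near the limits of the choice, 75 tiles had an oocyte mean of 75% to 80% and stood at 55.6% in WT-Mat and 72.7% in WT-Mat-Aphi. The 96 tiles just outside, with 70% to 75% in oocytes, stood at 53.2% and 74.1%. The 71 tiles with 20% to 25% in sperm stood at 80.8% in WT-Mat, and the 63 tiles just outside, with 25% to 30%, at 82.4%. Tiles on either side of a limit thus had like levels in the maternal pronuclei.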

How the data were processed

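RRBS was measured in 20 libraries (2 for each of 10 groups). Per the submitters' processing notes, reads were trimmed with Trim Galore and aligned and called with Bismark 0.10.1 on mm9. The deposited files list, per the file contents, a percent methylation and the counts of methylated and unmethylated calls at each position, as made by the authors. The deposited percent column was used only to check the counts. Every level was computed from the counts.

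Calls at positions with at least 5 reads were summed in 100-bp tiles, and a library's value is the mean over tiles weighted equally. The tile test was a logistic model of the calls with 1 level per group, fitted to the 8 libraries of a parent, with a Pearson dispersion shrunk across tiles by limma 3.58.1 (squeezeVar, trend on depth, floor of 1), an F test and Benjamini-Hochberg adjustment over all tiles. The prior was infinitely strong, so every tile took the dispersion of its depth. In simulated data it called 11 of 51 tiles changed by 90 points and 7 of 52 changed by 60 points in WT-Mat-Aphi against WT-Mat (71949 tiles), and no unchanged tile.

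The members and all lists were chosen with earlier results of these data known. Named regions are the called tiles, the 5 regions with the most tiles, those with the largest separated differences in each maternal comparison, those with the highest and lowest maternal and the highest paternal means, and every imprinting window with a member. No mm9 annotation was used. Imprinting windows are positions from general knowledge, rounded to 10 kb. RefSeq promoters (GRCm38.p6) were placed where at least 10 deposited positions all fell on their CpGs, with a match at least 1.5 times the next best, in RefSeq gene order. This procedure was devised, and revised once, after the files were seen, and 6620 of 31396 promoters were placed. Alternatives were other coverage, class limits, weights, tile sizes, dispersions and tests, and leaving out each library.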

Additional observations from a re-analysis of the deposited data

Results flagged for a closer look

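Chromosome Y calls, which enter no comparison of autosomal tiles, took a larger share of calls in 8 of 8 maternal pronuclear libraries than in either oocyte library (at most 4.41e-05%). The maternal shares ran from 6.77e-05% to 0.00297%, and those of the paternal libraries from 0.00597% to 0.0219%. Sperm stood at 0.0111% and 0.0117%. The share of the other parental genome that these values correspond to was not estimated.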

How the results depend on the processing

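Mean differences of the oocyte-only tiles in maternal pronuclei kept their direction in 86 of 88 alternatives, and those in paternal pronuclei in 51 of 56. Weighting tiles by calls gave 7.36 points for WT-Mat-Aphi against WT-Mat, and against the oocytes -9.40 for WT-Mat, -2.04 for WT-Mat-Aphi and -15.3 for CKO-Mat. The median over tiles gave, against the oocytes, -7.09 for WT-Mat, 1.68 for WT-Mat-Aphi, -14.4 for CKO-Mat and 1.23 for CKO-Mat-Aphi. Class limits of 90% and 10% gave -10.1 for WT-Mat against the oocytes and 2.32 for WT-Pat against sperm, and tiles of 1000 bp gave -1.78 for WT-Mat-Aphi against the oocytes. Leaving out each library gave -4.18 to -2.24 for the last comparison. Differences from oocytes or sperm carry the choice of tiles by gamete levels in every alternative. The imprinting windows stood above the other tiles by 6.20 points in WT-Mat and 4.45 in CKO-Mat-Aphi with limits of 90% and 10%. With all covered tiles of the windows, which include tiles unmethylated in oocytes, they stood below by -14.7, -21.1, -13.5 and -17.9 points in WT-Mat, WT-Mat-Aphi, CKO-Mat and CKO-Mat-Aphi.

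Counts of called tiles depended on the model. For WT-Mat-Aphi against WT-Mat (1 tile), adding the oocytes to the fit gave 5, tiles of 1000 bp 26, and leaving out any of the 4 libraries 0. For CKO-Mat-Aphi against CKO-Mat (2 tiles), the 4 libraries alone gave 0, limma on arcsine square roots 6, tiles of 1000 bp 26, and leaving out each library 0 to 3. For CKO-Mat against WT-Mat (0 tiles), limma gave 6 and tiles of 1000 bp 18, and for CKO-Mat-Aphi against WT-Mat-Aphi (0 tiles) tiles of 1000 bp gave 4. In paternal libraries tiles of 1000 bp gave 5 of 1429 for aphidicolin in WT and 11 for aphidicolin in CKO, where 3.86% and 3.28% of all such tiles were called higher, and 1 for CKO-Pat against WT-Pat (0.0498% higher). The single call for aphidicolin in CKO-Pat went to 0 with a floor before shrinkage, with limma and with 10 reads a position, and to between 0 and 1 on leaving out each library. CKO-Pat-Aphi against WT-Pat-Aphi went to 1 with sperm added and to between 0 and 1 on leaving out each library. Where 1 library remained in a group, its spread was taken from the rest. The causes were not tested.

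The labels do not say that replicate numbers pair the libraries, and deviations of same-numbered libraries had correlations of -0.0629 to 0.104 over tiles, a measure that leaves out shifts of the mean. The mean of replicate 1 was under that of replicate 2 in all 4 maternal groups, so a shared factor cannot be told apart from spread. With the replicate block the calls went to 0 in the 3 comparisons that had any (WT-Mat-Aphi against WT-Mat, CKO-Mat-Aphi against CKO-Mat and CKO-Pat-Aphi against CKO-Pat). The unknown number of molecules per tile and 2 libraries a group limit every single tile.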
